A study of Mus musculus with 9 samples.

Results

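R-spondins are secreted proteins that raise the response of a cell to Wnt ligands. They bind the receptors LGR4, LGR5 and LGR6 together with ZNRF3 or RNF43, membrane ubiquitin ligases that otherwise remove Frizzled Wnt receptors from the cell surface, and the ligase is cleared from the membrane as a result. LGR5, ZNRF3, RNF43 and AXIN2 are themselves known as genes that Wnt signalling switches on in several epithelia, and marrow stromal cells are a known source of Wnt modulators in bone. The genes described are Rspo1, Rspo2, Rspo3, Rspo4, Lgr4, Lgr5, Lgr6, Znrf3 and Rnf43. Each was chosen by its name, as the only gene symbol of a probe set, and all 9 had exactly 1 such probe set, among 21789 probe sets with 1 symbol for 19938 genes. The family itself was picked from the difference of Rspo2 between treated and control arrays, which was known from earlier results of these data. Levels and differences of the 9 genes between the treatments are therefore given as descriptions, without a test.

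The series profiled CXCL12-abundant reticular (CAR) cells, the marrow stromal cells that make most Cxcl12, on Affymetrix Mouse Gene 1.0 ST arrays. All mice had the genotype Cxcl12+/gfp, so 1 Cxcl12 allele carried green fluorescent protein in both groups, and lineage-negative cells bright for it were sorted. The 4 control arrays came from mice given phosphate-buffered saline (PBS) for 5 days and the 5 treated arrays from mice that received granulocyte colony-stimulating factor (G-CSF), the cytokine that drives neutrophil production and releases stem cells from marrow, at 250 µg/kg per day for 5 days. The labels give no ages and do not say how many animals stand behind an array, and where arrays share animals or extracts the errors measure technical spread. The source names of the samples speak of pre-B colonies and, for 4 G-CSF arrays, of an Hspa9 genotype. Titles, treatments and protocols say otherwise and were followed.

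Levels are log2 of the deposited RMA intensities, given by array or as mean ± SD, with n = 4 for PBS and n = 5 for G-CSF. Each difference is the G-CSF mean minus the PBS mean of these log2 values, and its standard error (SE) comes from a limma fit across all 21789 probe sets. The arrays fell into 2 sets on the first principal component (34.9% of the variance), each with arrays of both groups. PBS replicates 1 and 2 and G-CSF replicates 1 to 3 formed set 1, and the other 4 arrays set 2. PBS replicate 3 stood farthest out, at -56.5 on that component against -22.5 for the next array. The labels name no batch, so differences within each set are given beside the pooled ones. All 10 markers of CAR cells, Cxcl12 (12.35 ± 0.11 in PBS) and Lepr (11.55 ± 0.21) among them, lay above the 95th percentile of the 1035 olfactory receptor probe sets (4.84 in PBS and 4.83 in G-CSF), which serve as orientation for genes not thought to be transcribed in marrow stroma. RMA values carry no detection call, and because probes differ in affinity, levels of different genes are not ranked against each other.

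Among the ligands, Rspo2 and Rspo3 had high signals in control CAR cells and clearly lower ones after G-CSF, while Rspo1 and Rspo4 had signals close to the orientation range in both groups. In the fit over all probe sets, 3 of the 9 genes, Rspo2, Rspo3 and Lgr5, were called at a Benjamini-Hochberg adjusted p under 0.05, against 1.62% of all probe sets (353 of 21789), and the calls were all downward, against 0.877% of all probe sets called as fallen. The groups of these 3 genes did not overlap, which held for 4.65% of all probe sets. Since the family was picked for Rspo2 in this comparison, nothing is read from these shares. Leaving out PBS replicate 1 lowered the 353 to 210, leaving out G-CSF replicate 1 to 222 and leaving out G-CSF replicate 4 to 224.

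**Figure D1:**
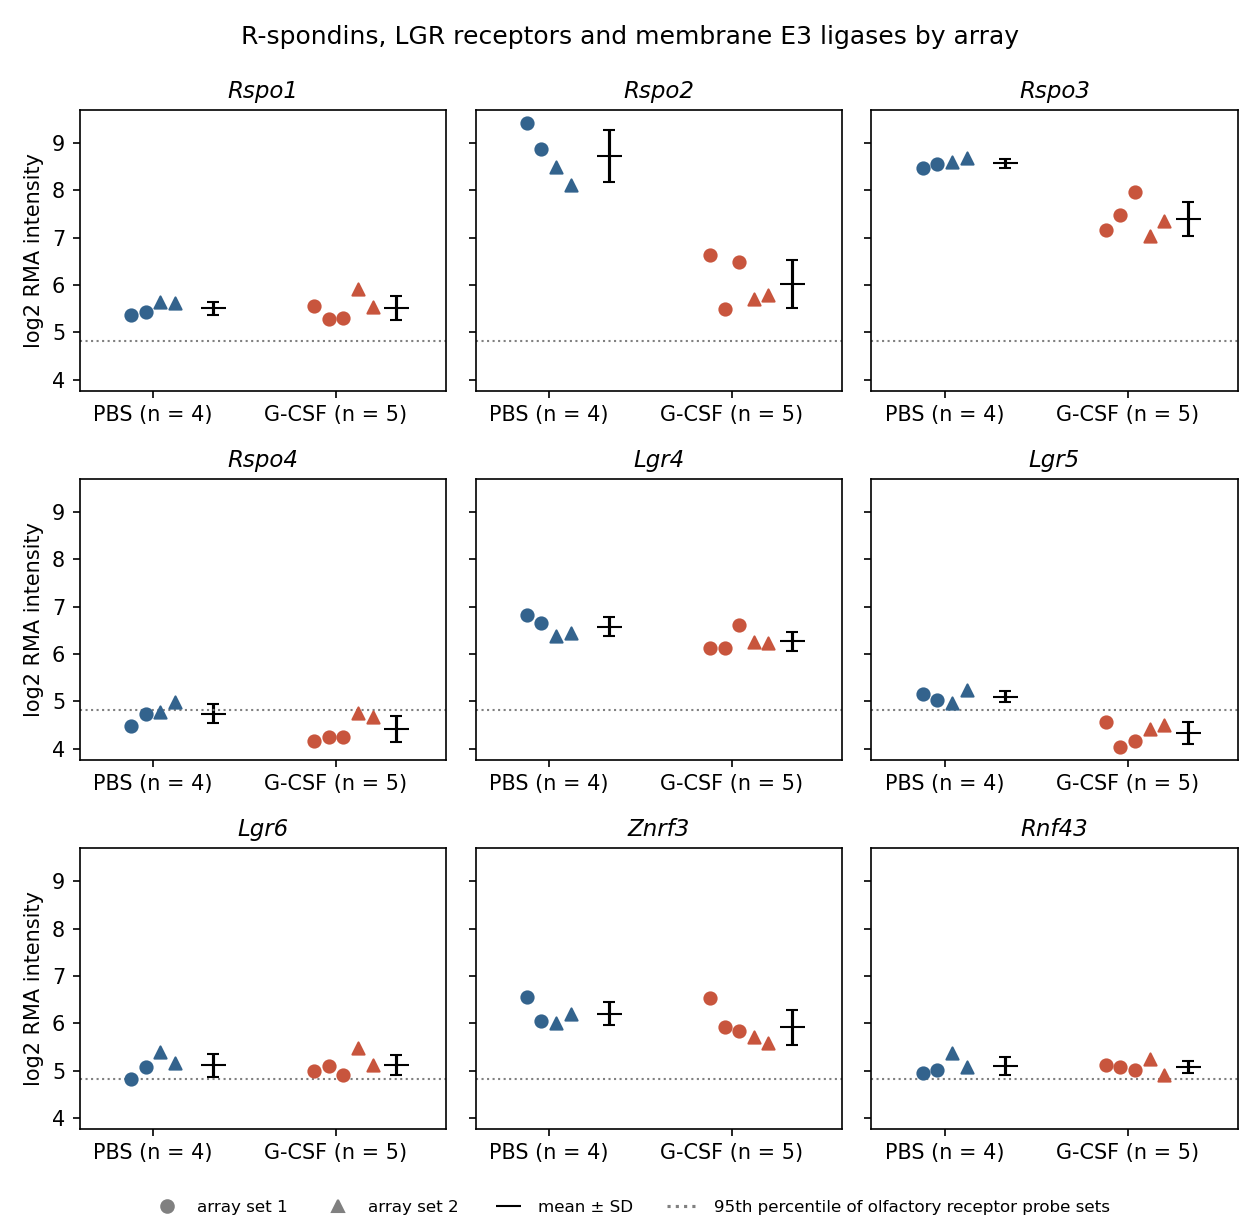
Log2 RMA intensity of each of the 9 genes on the 4 PBS and 5 G-CSF arrays. Circles are arrays of set 1, triangles arrays of set 2, the bars give the mean ± SD, and the dotted line marks the 95th percentile of olfactory receptor probe sets over all arrays (4.82). The groups do not overlap for Rspo2, Rspo3 and Lgr5, and overlap for the other 6 genes.

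Rspo2 (probe set 10428388), an R-spondin known for roles in limb, lung and skeletal development, measured 9.42, 8.87, 8.49 and 8.12 on PBS replicates 1 to 4. On G-CSF replicates 1 to 5 it measured 6.63, 5.50, 6.48, 5.70 and 5.80. The lowest PBS array lay 1.49 above the highest G-CSF array, so the groups were far apart although each was spread widely (SD 0.56 in PBS and 0.50 in G-CSF). The mean went from 8.73 to 6.02, a difference of -2.70 (SE 0.29, 95% interval -3.34 to -2.07), or 6.52-fold lower, the 5th lowest difference of all probe sets tested. Within PBS, both set 1 arrays were above both set 2 arrays, with means of 9.15 and 8.31. The difference was nonetheless close in the sets, at -2.94 in set 1 and -2.56 in set 2. It ranged from -2.91 (without PBS replicate 4) to -2.47 (without PBS replicate 1) when 1 array was left out.

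Rspo3 (probe set 10368495), an R-spondin known from vessel and placenta development and from bone, measured 8.47, 8.55, 8.59 and 8.68 on the PBS arrays. On the G-CSF arrays it measured 7.16, 7.48, 7.97, 7.04 and 7.35. The PBS arrays were tightly grouped (SD 0.09) and the G-CSF arrays were not (SD 0.36), with G-CSF replicate 3 the closest to PBS, 0.49 below its lowest array. The difference was -1.17 (SE 0.18, 95% interval -1.57 to -0.77), or 2.25-fold lower, with -0.97 in set 1 and -1.44 in set 2. Without G-CSF replicate 3 the difference was -1.31. As a limit to its place among the 3 called genes, Rspo3 was called in neither array set alone.

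The mean drop in signal was larger for Rspo2 than for Rspo3, a contrast that was not tested. The Rspo2 signal minus the Rspo3 signal averaged 0.16 ± 0.64 over the PBS arrays and -1.38 ± 0.53 over the G-CSF arrays, a shift of -1.53. The ranges of this quantity met through 1 array of each group, PBS replicate 4 at -0.55 and G-CSF replicate 1 at -0.53. The other PBS arrays were at -0.10 to 0.96 and the other G-CSF arrays at -1.98 to -1.34.

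Rspo1 (probe set 10508012), known for its role in ovary development, measured 5.36 to 5.64 on the PBS arrays and 5.28 to 5.92 on the G-CSF arrays. The PBS arrays lay within the wider range of the G-CSF arrays, with a difference of 0.01 (SE 0.16, 95% interval -0.34 to 0.36). The difference was -0.01 in set 1 and 0.10 in set 2. Rspo4 (probe set 10477035), known from nail development, measured 4.49, 4.73, 4.77 and 4.99 in PBS and 4.16, 4.26, 4.26, 4.75 and 4.67 in G-CSF. Its difference was -0.33 (SE 0.17, 95% interval -0.70 to 0.04), with -0.39 in set 1 and -0.17 in set 2. Both group means of Rspo4 lay below the 95th percentile of the olfactory receptor probe sets, so these values do not show that the gene was transcribed.

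**Figure D2:**
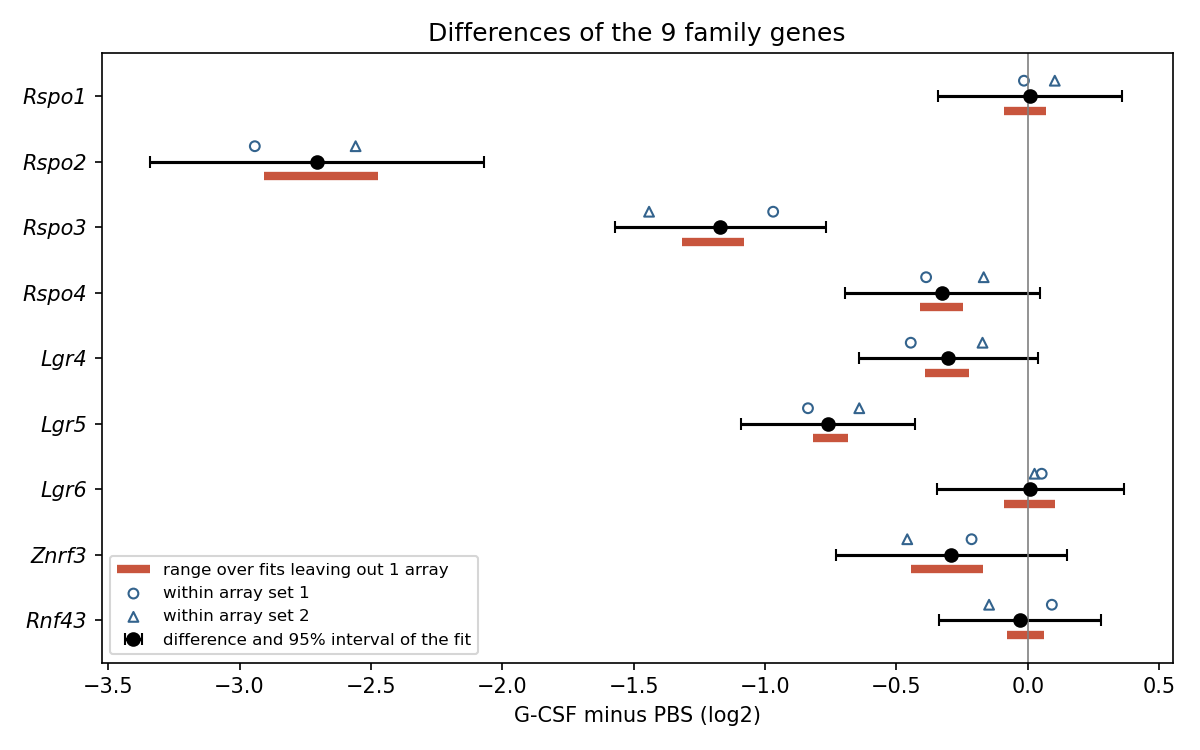
G-CSF minus PBS (log2) for each of the 9 genes. Black points and bars are the difference and its 95% interval from the fit over all arrays, thick bars the range over the 9 fits that left out 1 array, and open symbols the differences within each array set. Rspo2 (-2.70), Rspo3 (-1.17) and Lgr5 (-0.76) have negative values throughout, whereas Rspo1, Lgr6 and Rnf43 lie on both sides of 0. The family was picked for Rspo2 in this comparison, so these are descriptions without a test.

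Of the 3 receptors, only Lgr5 had groups that did not overlap, and Lgr4 was the one with both group means well above the orientation range. Lgr4 (probe set 10474419), the most widely expressed of the 3 receptors, measured 6.82, 6.66, 6.37 and 6.45 on the PBS arrays. On the G-CSF arrays it measured 6.13, 6.13, 6.63, 6.25 and 6.23. Only G-CSF replicate 3 reached into the PBS range, and the difference was -0.30 (SE 0.16, 95% interval -0.64 to 0.04), or -0.39 without that array. It was -0.45 in set 1 and -0.17 in set 2.

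Lgr5 (probe set 10372503), best known as a marker of intestinal and other epithelial stem cells, measured 5.15, 5.03, 4.97 and 5.25 on the PBS arrays. On the G-CSF arrays it measured 4.57, 4.04, 4.16, 4.43 and 4.51. All G-CSF arrays lay below all PBS arrays, by at least 0.40. The difference was -0.76 (SE 0.15, 95% interval -1.09 to -0.43), or 1.69-fold lower, with -0.84 in set 1 and -0.64 in set 2. The PBS mean of 5.10 was 0.27 above the olfactory receptor 95th percentile and the G-CSF mean of 4.34 was below it, so the difference sits at signals where transcription itself is uncertain. As a limit to its place among the 3 called genes, Lgr5 was not called without PBS replicate 1, 2 or 4 or G-CSF replicate 2, 3 or 4. With a pseudocount of 16 added to the intensities, which damps dim signals, its difference was -0.47.

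Lgr6 (probe set 10357965), known as a marker of stem cells in skin, measured 4.81, 5.08, 5.39 and 5.15 in PBS and 4.98, 5.10, 4.91, 5.47 and 5.12 in G-CSF. The groups overlapped throughout, with a difference of 0.01 (SE 0.16, 95% interval -0.35 to 0.37), and of 0.05 in set 1 and 0.03 in set 2.

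The 2 membrane ligases, which R-spondins clear from the membrane, had overlapping groups. Znrf3 (probe set 10383982) measured 6.56, 6.06, 6.00 and 6.19 on the PBS arrays and 6.53, 5.92, 5.83, 5.71 and 5.57 on the G-CSF arrays. G-CSF replicate 1 was close to the highest PBS array while the other 4 G-CSF arrays lay below every PBS array. The difference was -0.29 (SE 0.20, 95% interval -0.73 to 0.15), or -0.44 without G-CSF replicate 1. It was -0.21 in set 1 and -0.46 in set 2. Rnf43 (probe set 10380116) measured 4.94, 5.01, 5.37 and 5.08 in PBS and 5.12, 5.06, 5.02, 5.25 and 4.90 in G-CSF. Its difference was -0.03 (SE 0.14, 95% interval -0.34 to 0.28), and its sign changed with the array set, at 0.09 in set 1 and -0.15 in set 2.

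Other cell types could be present in the sorted material, and their markers moved between the groups as well. The mean of 10 neutrophil markers (S100a8, S100a9, Lcn2 and others) ranged from 8.53 to 10.13 in PBS and from 9.26 to 10.07 in G-CSF. All 10 had a positive difference and lay above the olfactory receptor 95th percentile, none was called by limma and 5 had an unadjusted p under 0.05. The mean of 5 erythroid markers ranged from 5.06 to 6.40 in PBS and from 4.50 to 4.82 in G-CSF. All 5 had a negative difference, and 3 were lower at an unadjusted p under 0.05. The 1 that fell was Car1 (7.37 ± 1.95 in PBS, 3.80 ± 0.24 in G-CSF, difference -3.57). The mean of 6 B cell markers ranged from 5.95 to 6.39 in PBS and from 5.36 to 5.66 in G-CSF. Of the 6, 2 fell, Ebf1 (10.10 in PBS, 9.19 in G-CSF) and Cd79a (4.46 and 3.38), and 4 were lower at an unadjusted p under 0.05. Whether the Ebf1 signal came from B cells or from the stromal cells themselves was not tested. Cd79a lay below the olfactory receptor 95th percentile in both groups. The mean of the 10 CAR cell markers ranged from 10.77 to 10.98 in PBS and from 10.28 to 10.35 in G-CSF. Of the 10, 4 fell (Adipoq, Vcam1, Ebf3 and Kitl). The other 6, Cxcl12 and Lepr among them, did not pass, and 2 of these, Pdgfra and Pdgfrb, had positive differences (0.28 and 0.01). At an unadjusted p under 0.05 in limma, 7 of the 10 were lower and 0 were higher, and the median of the list was -0.60. The mean of 6 smooth muscle and pericyte markers ranged from 5.26 to 5.60 in PBS and from 5.90 to 6.28 in G-CSF. Among these 6, 1 rose and 3 were higher at an unadjusted p under 0.05. Of 7 genes listed for macrophages, 1 fell, and that gene was Vcam1, which is also among the CAR cell markers. The other 6 did not pass, and 3 of the 7 were lower at an unadjusted p under 0.05. Of 5 chondrocyte markers, 1 fell (Comp) and 2 were lower at an unadjusted p under 0.05. Of 5 osteoblast markers, 1 rose (Col1a1), while the other 4 had negative differences, 3 of them at an unadjusted p under 0.05, and the median of the list was -0.47. None of 6 endothelial and 4 megakaryocyte markers was called in limma (1 and 0 at an unadjusted p under 0.05). Whether these changes have a part in the lower Rspo2, Rspo3 and Lgr5 signals was not tested. In RNA from sorted cells, fewer cells that express a gene and less of its RNA per cell cannot be told apart.

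The rest of the Wnt pathway was examined through 6 lists of genes without the family members, and most of it did not pass the threshold. Of 107 genes measured, 2 rose, 2 fell and 103 did not pass in limma at adjusted p under 0.05, which is 3.74% called against 1.62% of all probe sets. The median difference was -0.04, against 0.01 over all probe sets. Groups did not overlap for 11 of the 107, against 4.65% of all probe sets. An unadjusted p under 0.05, counted for each list in what follows, was found for 2008 of the 21789 probe sets tested. The count of 4 called genes became 7 without PBS replicate 3 (Fzd4, Fzd1 and Tspan12 in addition), 8 with the array set as a block and 0 within set 2. Within set 1 it was again 4, but of other genes in part: Fzd4, Fzd1, Ccn5 and Tnfrsf19 were called, and Fzd5 and Sdc3 were not. With the replicate number as a block, only Ccn5 of the list genes was called. The array sets were drawn from these same arrays, so a lower p with them as a block is no separate support for a gene.

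**Figure D3:**
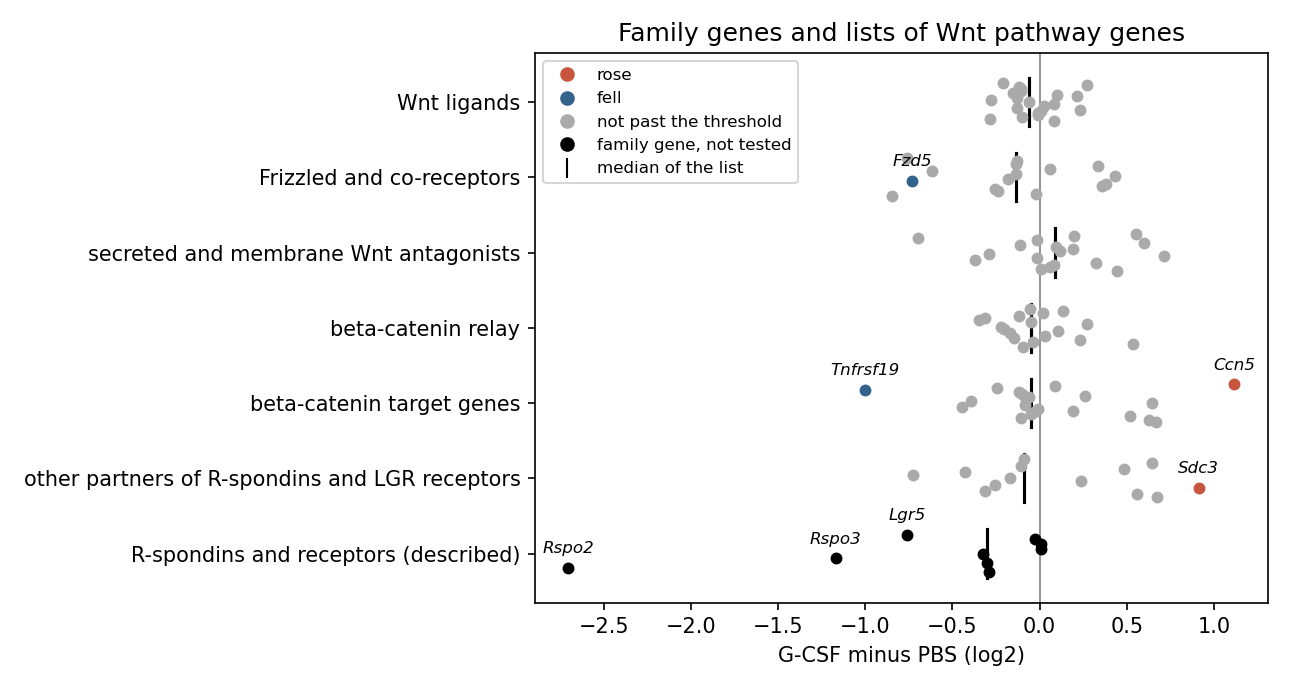
G-CSF minus PBS (log2) for the genes of 6 Wnt pathway lists and for the 9 family genes, 1 point per gene. Blue points fell and red points rose at adjusted p under 0.05, grey points did not pass, black points are the family genes, which are described without a test, and the vertical bars are list medians. The list medians lie between -0.14 and 0.09, and the 4 genes called are Fzd5, Tnfrsf19, Ccn5 and Sdc3.

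Of the Wnt ligands and the proteins that prepare them for secretion, none of 21 was called in limma. Among them 0 had an unadjusted p under 0.05, and the median difference was -0.06. The smallest p belonged to Wls, which carries Wnt proteins to the cell surface (7.91 ± 0.29 in PBS, 7.64 ± 0.18 in G-CSF, adjusted p = 0.748), and to Wnt2b (4.40 ± 0.18 and 4.67 ± 0.35, adjusted p = 0.805). Of these 21 genes, 11 had a PBS mean above the olfactory receptor 95th percentile.

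Frizzled receptors are the proteins that ZNRF3 and RNF43 remove from the membrane. Of 16 receptors and co-receptors, 1 fell (Fzd5) and 15 did not pass; 4 were lower and 1 was higher at an unadjusted p under 0.05. Fzd5 measured 8.51, 8.25, 7.88 and 8.01 on the PBS arrays and 7.68, 7.33, 7.54, 7.36 and 7.25 on the G-CSF arrays, without overlap. It fell by 0.73 (SE 0.16, adjusted p = 0.0469), with -0.86 in set 1 and -0.64 in set 2. This call was at the threshold. It held without PBS replicate 3 (adjusted p = 0.0308) and was lost when any of the other 8 arrays was left out, PBS replicate 1 giving the highest adjusted p (0.138), and it was lost within set 1 (0.0991) and within set 2 (0.373). Fzd4 was at 6.86 ± 0.57 and 6.01 ± 0.06 (difference -0.85, adjusted p = 0.109), with -1.22 in set 1 and -0.48 in set 2. It passed without PBS replicate 3, which at 6.09 was the lowest PBS array (adjusted p = 0.00531, range over arrays left out up to 0.269), and with the array set as a block (adjusted p = 0.0304).

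Among secreted and membrane antagonists of Wnt signalling, none of 18 was called in limma, 4 had an unadjusted p under 0.05 and the median difference was 0.09. Apcdd1, a membrane glycoprotein that inhibits Wnt signalling, measured 6.11 ± 0.32 in PBS and 6.82 ± 0.17 after G-CSF (difference 0.71, adjusted p = 0.0691, 0.0337 with the array set as a block, and 0.0803 to 0.170 with 1 array left out). Tpbg, another membrane inhibitor, was at 7.77 ± 0.33 and 7.08 ± 0.41 (difference -0.70, adjusted p = 0.228, 0.0250 with the array set as a block, and 0.137 to 0.481 with 1 array left out). In the intracellular relay, from Dishevelled to beta-catenin and its co-factors, none of 18 was called and 2 had an unadjusted p under 0.05. Ctnnb1, which encodes beta-catenin, was at 8.39 ± 0.29 and 8.93 ± 0.35 (difference 0.54, adjusted p = 0.355), and Bcl9l, a co-activator of beta-catenin, at 8.19 ± 0.12 and 7.84 ± 0.20 (difference -0.35, adjusted p = 0.456).

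Known target genes of beta-catenin moved in both directions. Among 21 genes, 1 rose (Ccn5), 1 fell (Tnfrsf19) and the other 19 did not pass; 4 were higher and 2 were lower at an unadjusted p under 0.05, and the median difference was -0.05. Ccn5, a secreted matrix protein first named as Wnt-inducible, measured 9.68, 9.58, 9.48 and 9.49 on the PBS arrays and 10.85, 10.74, 10.88, 10.39 and 10.50 on the G-CSF arrays. It rose by 1.12 (SE 0.15, adjusted p = 0.00193), or 2.17-fold, with 1.20 in set 1 and 0.96 in set 2. Tnfrsf19, a receptor of the tumour necrosis factor family that is a Wnt target in stem cells, measured 9.06, 8.91, 8.42 and 8.57 on the PBS arrays and 7.64, 8.01, 7.73, 7.66 and 7.63 on the G-CSF arrays. It fell by 1.00 (SE 0.16, adjusted p = 0.00837), or 2.00-fold, with -1.19 in set 1 and -0.85 in set 2. Both were called whichever array was left out, with a highest adjusted p of 0.00958 for Ccn5 and 0.0323 for Tnfrsf19, but neither passed within set 2 alone (adjusted p = 0.154 and 0.225). Axin2, the target gene most often used as a readout of the pathway, was at 5.31 ± 0.26 and 5.57 ± 0.30 (difference 0.26, adjusted p = 0.812). Lef1 was at 5.39 ± 0.12 and 5.36 ± 0.23 (difference -0.03, adjusted p = 0.992). Both were chosen after their values were seen. Like Rspo1, both had signals close to the olfactory receptor 95th percentile (4.84 in PBS, 4.83 in G-CSF), where a missing call says little about the pathway.

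The last list held heparan sulfate proteoglycans and other partners of R-spondins, of LGR receptors or, for Tspan12, of a Frizzled receptor. Of 13 measured, 1 rose and 12 did not pass; 5 were higher and 2 were lower at an unadjusted p under 0.05. Sdc3, a syndecan, measured 6.66, 6.77, 6.38 and 6.88 on the PBS arrays and 7.67, 7.44, 7.82, 7.57 and 7.42 on the G-CSF arrays. It rose by 0.91 (SE 0.15, adjusted p = 0.00896), or 1.88-fold, with 0.93 in set 1 and 0.86 in set 2, and it was called whichever array was left out (highest adjusted p = 0.0313) but in neither array set alone (adjusted p = 0.0748 in set 1 and 0.300 in set 2). Tspan12, a tetraspanin that works with Fzd4, was at 8.37 ± 0.30 and 7.64 ± 0.18, without overlap (difference -0.73, adjusted p = 0.0546). It passed with the array set as a block (adjusted p = 0.0371) and without PBS replicate 3 (0.0354, and up to 0.167 over the arrays left out).

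The genes with the profile most like that of Rspo2 were sought among 18707 genes, 1 probe set each, by Pearson correlation of log2 values over the 9 arrays. The highest were Dock8 (r = 0.99), Abcd2, Plekhh2, Arhgap5 and Pparg (all r = 0.98). All 5 were lower in G-CSF, by 0.72 (Arhgap5) to 1.51 (Pparg, the main transcription factor of fat cell formation, at 9.01 in PBS and 7.50 in G-CSF), where Rspo2 had a difference of -2.70. Such a correlation mostly reflects the shared difference between the groups. With each group's mean removed, the highest were Mosmo, Tmem9b, Septin8, Cenpw and Apex1 (r = 0.94 to 0.95), none of which was among the first 5, and their differences between groups lay between -0.17 and 0.20. These are descriptions over arrays that share the 2 sets.

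**Figure D4:**
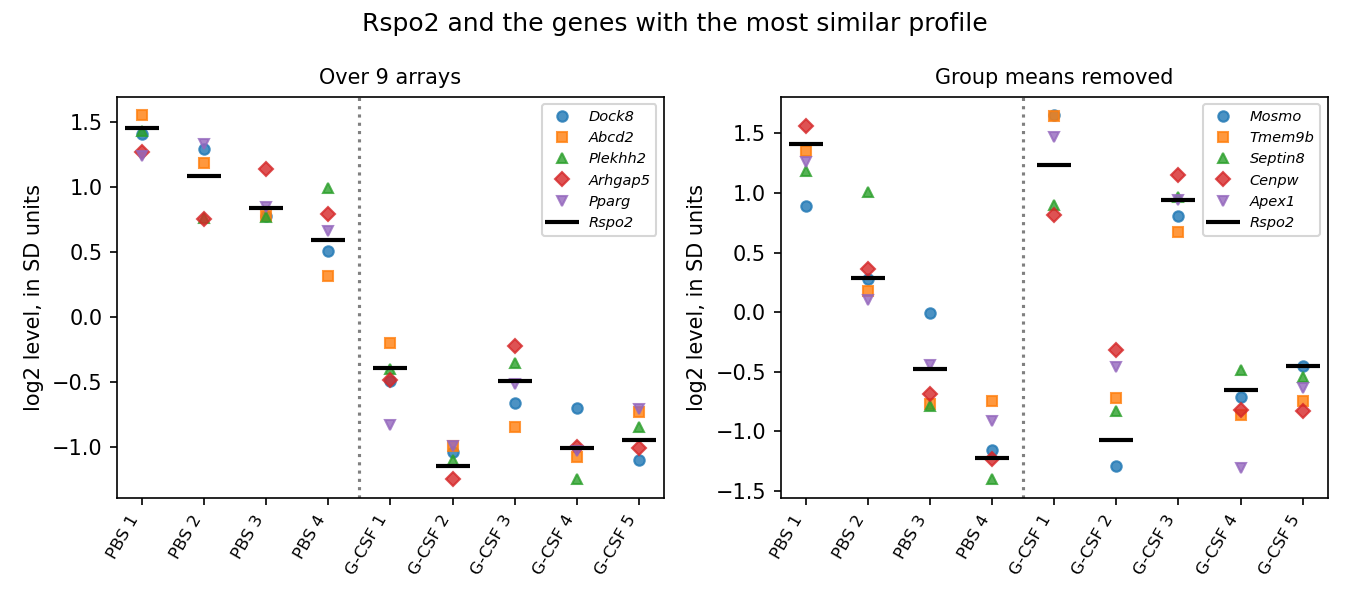
Log2 levels of Rspo2 (black bars) and of the 5 genes most like it, by array, in units of each gene's SD over the arrays. On the left levels are centred over all 9 arrays (Dock8 at r = 0.99 is the most similar); on the right the mean of each group was removed first, and a different set of 5 genes follows Rspo2, high on PBS replicate 1 and on G-CSF replicates 1 and 3.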

How the data were processed

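Per the submitters' processing notes, the authors computed the deposited intensity values by RMA with Affymetrix Expression Console; versions, library files and genome build are not given in the sources used here. These intensities ran from 1.73 to 15673.1, a linear scale, so log2 was taken here. RMA normalises arrays to each other, so differences are relative to other transcripts and a change in total RNA per cell cannot be seen. Precision is limited by the number of arrays. Of 35553 probe sets, the platform table gave 21789 one symbol, 1621 several and 12143 none; no probe set with several symbols named a family member. Gene identifiers of 21698 tested probe sets were found in RefSeq's mouse genes (GRCm38.p6), from which no coordinates were taken.

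G-CSF and PBS were compared with limma 3.58.1 (lmFit, eBayes) in R 4.3.3, two-sided, on all 9 arrays and 21789 probe sets, without covariates; groups and replicate numbers came from the titles. The fit was tested on simulated data. For a list gene with several probe sets, that with the highest mean was used. Named genes were all family members, every called gene of each Wnt list or the smallest p up to 2, and the 5 genes most like Rspo2 by each measure; others are marked. The family, lists, array sets and alternatives were chosen with earlier results of these data known. Alternatives were other normalisations, array weights, blocks, array sets, filters, thresholds, a pseudocount and each array left out. No arrays held identical values.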

Additional observations from a re-analysis of the deposited data

Results flagged for a closer look

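The highest and lowest array of each group was set against the others for the 9 family genes and the 12 named genes of the Wnt lists, 42 groups in all. In 2 groups 1 array lay far from the rest by Dixon's criterion, and chance marks about 1 in 20 groups. Lgr4 was at 6.63 on G-CSF replicate 3, against 6.13 to 6.25 on the other 4 G-CSF arrays. Tnfrsf19 was at 8.01 on G-CSF replicate 2, against 7.63 to 7.73 on the others.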

How the results depend on the processing

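Rspo2, Rspo3, Rspo4, Lgr4, Lgr5 and Znrf3 were lower in G-CSF under all 17 alternatives run for them, while Rspo1, Lgr6 and Rnf43, whose differences are near 0, kept their sign in 10, 13 and 12. No difference of the 9 genes moved by more than 1 SD between replicates, except that of Lgr5 with a pseudocount of 16 (-0.47). The 353 probe sets called became 180 with the replicate block, 181 over all probe sets, 598 with the array set as a block, 202 within set 1 and 59 within set 2, and 210 to 318 with 1 array left out. Of the 9 family genes, 1 was called within set 1 and 1 within set 2, Rspo2 in both, so Rspo3 and Lgr5 were called in neither set alone. With 1 array left out, 2 to 3 were called, Rspo2 and Rspo3 in each of these fits. The 4 Wnt list genes called became 7 after a further quantile normalisation, 8 with array weights, 8 with the array set as a block, 1 (Ccn5) with the replicate block, 0 within set 2, and 3 to 7 with 1 array left out. The replicate numbers were not taken as pairs, since the titles do not say that equal numbers share an animal, day or batch. Deviations of same-numbered arrays correlated at -0.28 for number 3 and at 0.14 to 0.35 for the others. These values cannot decide whether the numbers mark pairs. With the replicate block, Rspo2 and Rspo3 stayed called and Lgr5 did not.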

Other observations

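Of the 5 family genes whose PBS mean was less than 1 (log2) above the olfactory receptor 95th percentile (Rspo1, Rspo4, Lgr5, Lgr6 and Rnf43), 3 (Rspo1, Lgr6 and Rnf43) were highest on replicate 3 among the PBS arrays, and these 3 and Rspo4 were highest on replicate 4 among the G-CSF arrays. Lgr5 differed from them, being lowest on replicate 3 among the PBS arrays and highest on replicate 1 among the G-CSF arrays, with groups that did not overlap. The median of the olfactory receptor probe sets was 3.51 on PBS replicate 3, against 3.00 to 3.22 on the other 8 arrays, and 3.16 on G-CSF replicate 4, within the range of the other G-CSF arrays.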
